A study of Mus musculus with 6 samples.

Results

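Genes that make, carry, sense and destroy retinoic acid were read on 6 Affymetrix mouse expression arrays. The set was defined by gene symbol: Stra6, Dhrs3, Aldh1a2, Crabp1, Crabp2, Rara, Rarb, Rarg and Cyp26a1. Every probe set whose platform annotation carried exactly one of these symbols was taken, which gave 10 of the 45101 probe sets, and 9 of the 18193 genes with an unambiguous symbol. Rarg had 2 probe sets and each of the other 8 genes had 1, so for those 8 genes no second probe set was there to compare. The arrays measured cells sorted for Flk1, a VEGF receptor of early mesoderm, out of embryoid bodies (the aggregates in which ES cells differentiate) grown from the mouse ES cell line ER71 A17C, derived from strain 129P2/Ola. All 6 samples carry a doxycycline-inducible cassette of Etv2, an ETS-family transcription factor of the blood and endothelial lineages, and all were collected at day 3.5 of differentiation. The 3 induced samples had doxycycline at 0.5 microg/ml added on day 3 and left for 12 hours, and the 3 control samples are called untreated in the design text, although the treatment field repeats the doxycycline entry on all 6. No sample of a line without the cassette was analysed here, so Etv2 and doxycycline cannot be told apart.

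Retinoic acid is made from vitamin A (retinol) in several steps: retinol enters cells, is oxidised to retinal by a reversible reaction, and retinal is then oxidised irreversibly to retinoic acid. Inside the cell the acid is bound by small carrier proteins and reaches nuclear receptors, which sit on DNA with RXR partners and switch genes on when the ligand arrives, or it is oxidised by enzymes of the Cyp26 family. In the mouse gastrula Cyp26a1 is known for keeping retinoic acid away from the posterior primitive streak and early mesoderm, and Aldh1a2 for starting its synthesis in the trunk mesoderm.

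The receptors' classical binding site is a pair of hexamers in the same orientation spaced by 5 bases, called DR5. The promoters below show it because Rarb and Cyp26a1 are the textbook genes that retinoic acid induces through such a site, and the Cyp26a1 level is the most variable of the set. Promoter sequences of RefSeq (build GRCm38.p6, 250 bases before to 50 after an annotated start) were found for 8 of the 9 genes (all but Crabp2), 17 windows in all. The windows of Cyp26a1 and Rarb are written 5′ to 3′ along the gene, and capitals mark the DR5 match. The Cyp26a1 window lies at chr19:37697558-37697857 on the plus strand and the Rarb window at chr14:16575427-16575726 on the minus strand.
Cyp26a1: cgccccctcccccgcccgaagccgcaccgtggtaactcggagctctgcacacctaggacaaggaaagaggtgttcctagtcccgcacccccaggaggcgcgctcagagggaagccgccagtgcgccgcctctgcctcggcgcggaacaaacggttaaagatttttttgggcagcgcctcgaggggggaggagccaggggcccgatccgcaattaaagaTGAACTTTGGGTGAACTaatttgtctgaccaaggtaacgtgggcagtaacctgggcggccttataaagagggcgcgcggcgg
Rarb: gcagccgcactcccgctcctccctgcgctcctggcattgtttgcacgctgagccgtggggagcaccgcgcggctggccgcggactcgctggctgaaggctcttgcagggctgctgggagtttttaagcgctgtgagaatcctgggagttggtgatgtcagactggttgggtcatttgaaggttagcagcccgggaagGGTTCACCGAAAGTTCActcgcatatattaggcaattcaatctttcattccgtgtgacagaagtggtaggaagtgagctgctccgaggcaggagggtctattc
In Rarb the match runs from 53 to 37 bases before the start and reads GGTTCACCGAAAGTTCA on the gene's own strand. In Cyp26a1 it runs from 32 to 16 bases before the start, on the opposite strand, where it reads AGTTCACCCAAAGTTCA. In the search a hexamer could read AGGTCA or, as a variant, AGTTCA, and the spelling GGGTCA was accepted too, as was that of GGTTCA. Both strands were searched, and among all 32851 RefSeq promoter windows 32 (0.0974%) held a DR5. No other window of the set held one. The same hexamers spaced by 2 bases (DR2), present in 0.268% of all windows, were found in 0 of the 17, as was the ETS motif ACCGGAA, present in 3.72%. With the strict letters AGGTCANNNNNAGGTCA, which 3 of all windows hold, 0 of the 17 matched. Letters outside these windows were not searched.

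Levels are log2 values from RMA, a method that corrects background, equalises the distributions of the arrays and summarises the probes of a probe set, so a difference of 1 is a doubling. Array medians lay between 7.34 and 7.40, the highest being induced 2. Etv2 read 13.27 to 13.36 in the induced samples and 8.59 to 10.71 in the controls. Kdr, the gene of the sorted protein Flk1, read 10.02 in control 1, 8.40 in control 2 and 10.97 in control 3, against 9.56, 9.36 and 10.52 in the induced samples, in the order of their replicate numbers. Of 30 mesoderm markers measured, 26 lay above the median level of all probe sets, as did 17 of 19 pluripotency markers, 5 of 19 endothelial markers and 7 of 16 blood markers. The mean of the 30 mesoderm markers was 10.03, 9.08 and 10.25 in the controls and 9.56, 9.50 and 9.94 in the induced samples, and that of the pluripotency markers was 9.98, 10.44 and 9.85 in the controls and 10.27, 10.23 and 10.08 in the induced samples. Control 2 was thus the lowest array in mesoderm markers and the highest in pluripotency markers. The mean of 11 definitive endoderm markers ran from 10.35 in control 2 to 10.79 in control 3, that of 13 visceral endoderm markers from 7.15 to 7.45 (highest in induced 2), and that of 14 neuroectoderm markers from 7.84 to 8.06.

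No gene of the retinoic acid set passed the test for a difference between induced and control samples. In limma, with Benjamini-Hochberg adjustment over 45037 probe sets, 0 of the 10 probe sets passed an adjusted p of 0.05 in either direction, and 0 had an unadjusted p under 0.05. Over all probe sets 0.00222% passed (1 probe set, of Hprt, higher), 0% were lower past the threshold, and 1.53% had an unadjusted p under 0.05. Each of the 10 adjusted p-values was 0.9998. The log2 differences ran from -0.41 to 0.28, with 5 above 0 and 5 below, a median of 0.040 against 0.0029 over all probe sets. Induced and control values overlapped in all 10, where 2.72% of all probe sets lay wholly higher and 3.7% wholly lower in the induced samples. Etv2 itself, with a log2 difference of 3.56 ± 0.46 (SE) and groups that did not overlap, had an unadjusted limma p of 7.6e-05 and an adjusted p of 0.9998, so it was not called either.

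**Figure D1:**
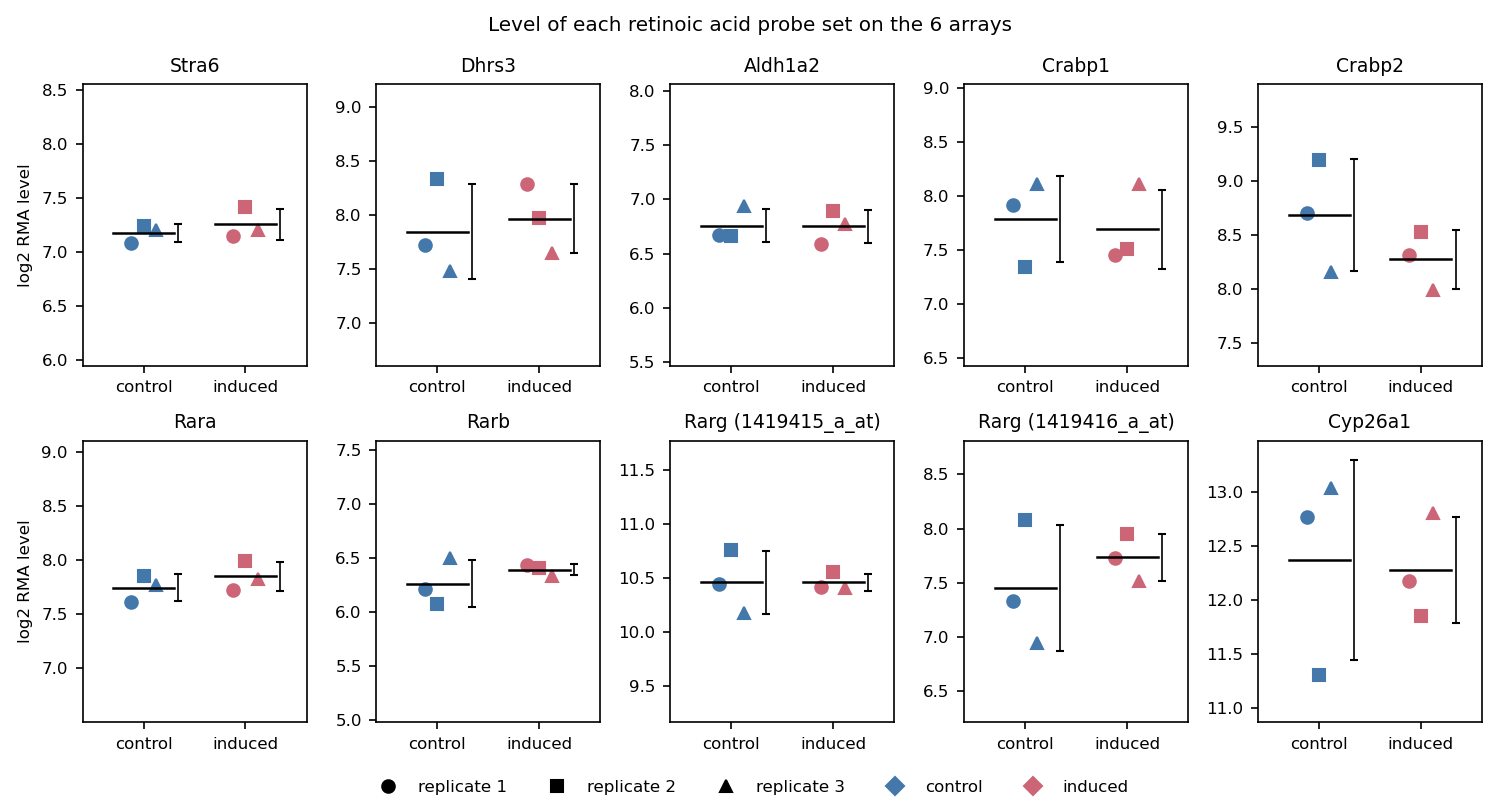
Log2 RMA level (vertical axis, each panel spanning the same number of log2 units) of the 10 retinoic acid probe sets in control (blue) and induced (red) samples, with circles, squares and triangles for replicates 1, 2 and 3, a line at each group mean and a bar of 1 SD. Cyp26a1 runs from 11.31 to 13.03 within the controls, and induced and control points overlap in every panel.

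Entry of retinol and the retinal step came first. Stra6, the membrane receptor that takes up retinol from its serum carrier, read 7.08, 7.24 and 7.20 in control replicates 1, 2 and 3, and the induced replicates read 7.14, 7.42 and 7.21. It differed little between any of the arrays, with induced 2 the highest, and its log2 difference was 0.082 ± 0.097 (SE, 3 against 3), with a 95% interval of 0.91-fold to 1.24-fold. Its level lay just under the median of all probe sets, and no detection calls were used here. Dhrs3 encodes a reductase that turns retinal back into retinol and so draws substrate away from retinoic acid. It read 7.73, 8.33 and 7.48 in the controls and 8.29, 7.97 and 7.65 in the induced samples. Control 2 and induced 1 were the high arrays, and replicate 3 was the lowest of its group in both. The log2 difference of Dhrs3 was 0.12 ± 0.24, with an interval of 0.741-fold to 1.598-fold.

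Aldh1a2, the dehydrogenase that makes retinoic acid in the early embryo, had a within-group SD at the 67.2nd percentile of all probe sets. It read 6.67, 6.66 and 6.94 in the controls and 6.59, 6.89 and 6.77 in the induced samples. The 6 values spanned 0.35, below the median level of all probe sets, and the log2 difference was -0.0063 ± 0.11 with an interval of 0.829-fold to 1.196-fold. Within replicate numbers the difference was -0.084, 0.23 and -0.16, so its sign changed between the pairs.

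The carriers of retinoic acid, Crabp1 and Crabp2, moved differently between the arrays. Crabp1, whose product binds retinoic acid in the cytoplasm and is linked with its breakdown, read 7.91, 7.34 and 8.11 in the controls and 7.45, 7.51 and 8.11 in the induced samples. Both samples of replicate 3 were the highest of their group, and the log2 difference was -0.096 ± 0.24. Crabp2, whose product delivers retinoic acid to its nuclear receptors, read 8.70, 9.19 and 8.16 in the controls and 8.31, 8.53 and 7.99 in the induced samples. Here replicate 3 was the lowest of its group in both, and replicate 2 the highest.

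Crabp2 had the largest difference of the 10 probe sets, at -0.41 ± 0.26 (SE), or 0.75-fold with a 95% interval of 0.50-fold to 1.14-fold. An exact permutation test of its 3 against 3 values gave p = 0.3, where 0.1 is the smallest p that test can give. Within replicate numbers 1, 2 and 3 it was lower in the induced sample each time, by -0.39, -0.67 and -0.17 on the log2 scale. It was the only probe set of the 10 lower in all 3 pairs, and 13.3% of all probe sets were. With the replicate number as a block its SE was 0.11 and its unadjusted limma p was 0.0099, but its adjusted p stayed at 0.9997, and 0 of the 10 probe sets passed in that fit, as did 0% of all probe sets. Stra6 and Rara were higher in all 3 pairs, as were 9.53% of all probe sets.

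**Figure D2:**
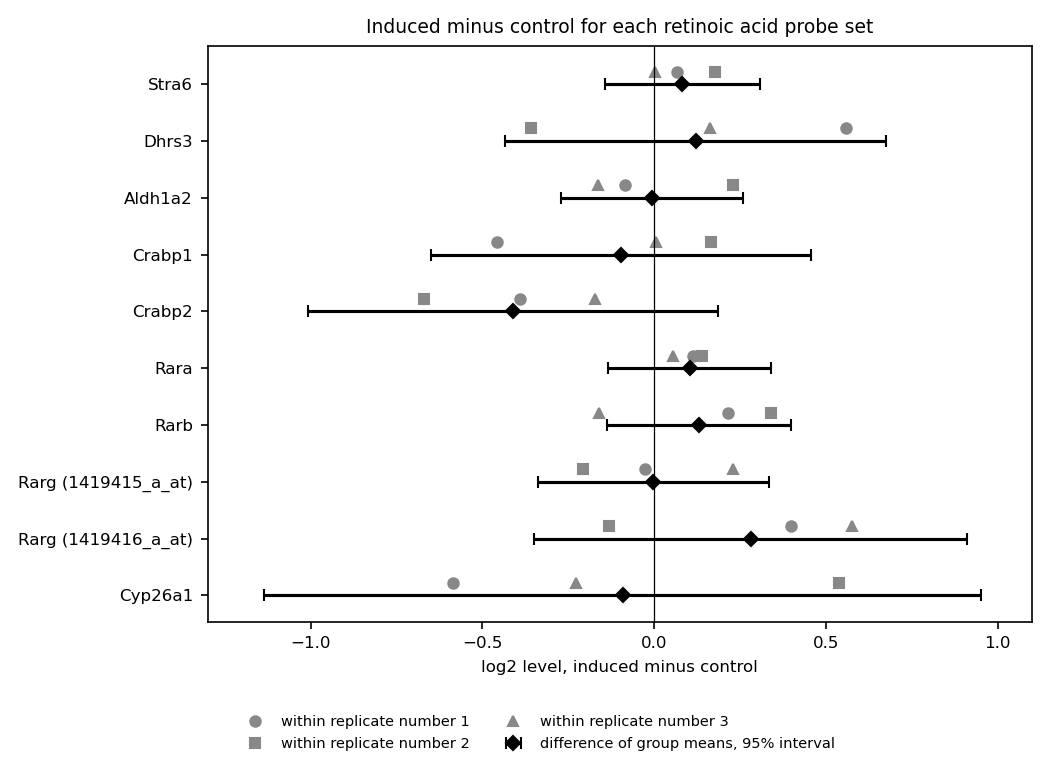
Difference in log2 level, induced minus control (horizontal axis), for each probe set: diamonds are differences of group means with 95% intervals from limma, and grey symbols are the differences within replicate numbers 1, 2 and 3. Every interval includes 0, and Crabp2 is the probe set whose 3 pairs all lie below 0.

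The receptors Rara, Rarb and Rarg are the nuclear proteins that bind retinoic acid. Rara read 7.61, 7.85 and 7.77 in the controls and 7.73, 7.995 and 7.82 in the induced samples. Its log2 difference was 0.10 ± 0.10, and within each group replicate 2 was the highest. Rarb, the receptor gene with the DR5 shown above, read 6.21, 6.07 and 6.50 in the controls and 6.43, 6.41 and 6.34 in the induced samples. Its mean lay at the 30.8th percentile of probe set levels. Controls bracketed the induced samples, and the log2 difference was 0.13 ± 0.11, with an interval of 0.91-fold to 1.32-fold.

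Rarg was read by 2 probe sets. The first (probe set 1419415_a_at) read 10.44, 10.76 and 10.18 in the controls and 10.42, 10.55 and 10.41 in the induced samples, a log2 difference of -0.0021 ± 0.14. The second (probe set 1419416_a_at) read 7.33, 8.08 and 6.94 in the controls and 7.73, 7.95 and 7.52 in the induced samples, a log2 difference of 0.28 ± 0.27. Both put control 2 at the top and control 3 at the bottom, and over the 6 arrays they correlated at r = 0.91. They differed in spread: the within-group SD was 0.21 for the first and 0.44 for the second. The sources used here do not say which transcripts each of them reads.

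Cyp26a1, the oxidase that clears retinoic acid, was the most variable gene of the set. It read 12.76, 11.31 and 13.03 in control replicates 1, 2 and 3, and the induced replicates read 12.18, 11.85 and 12.81. Its lowest and highest arrays were both controls and lay 3.30-fold apart. The group means were 12.37 ± 0.93 (SD, n = 3) and 12.28 ± 0.49, a log2 difference of -0.092 ± 0.45 (SE), or 0.94-fold with a 95% interval of 0.46-fold to 1.93-fold. The difference was -0.59, 0.54 and -0.23 within replicate numbers 1, 2 and 3. Its within-group SD of 0.74 lay at the 99.7th percentile of all probe sets, and 9 of the 10 probe sets of the retinoic acid set lay above the median of that SD. Those above the 95th percentile were Dhrs3, Crabp1, Crabp2, the second Rarg probe set and Cyp26a1.

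The replicate numbers are shared by both groups, so the difference between numbers could be tested beside that between groups. An F test of the number in limma, with the group in the fit, called 0 of the 10 probe sets over all arrays, as it called 0% of the 45037. At an unadjusted p under 0.05 there were 4 of 10, against 8.32% of all probe sets: Crabp1, Crabp2, the second Rarg probe set and Cyp26a1. The count of calls after adjustment, 0 over all arrays, changed when single arrays were left out. Without induced 2 the F test called Cyp26a1 (adjusted p = 0.0075), the second Rarg probe set (0.0187) and Crabp2 (0.0275), among 1018 of the 45037 probe sets (2.26%). Cyp26a1 was also called without control 1 (0.0468), among 87 probe sets (0.193%), and without induced 1 (0.0334), among 106 (0.235%). Each fit without 1 array rests on a single residual degree of freedom before limma's moderation. It also reads the replicate number of the array left out from 1 array alone, which is control 2 in the fit without induced 2. These calls therefore do not show a difference shared by both samples of a number.

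Across the 6 arrays 4 of the 9 genes were related to the mesoderm markers by Pearson r, in opposite directions. Cyp26a1 and Crabp1 were high where mesoderm markers were high, and Dhrs3 and Rarg were high where those markers were low. For Cyp26a1 Pearson r with the mesoderm mean was 0.99 (exact permutation p = 0.0028, adjusted p = 0.025 over 9 genes) and Spearman rho was 0.94 (exact permutation p = 0.0167, adjusted p = 0.15). The level rose by 1.54 log2 units per unit of the mesoderm mean. For Crabp1 r was 0.93 (exact permutation p = 0.0194, adjusted p = 0.0438; rho = 0.77, p = 0.103, adjusted p = 0.231). For Dhrs3 r was -0.92 (exact permutation p = 0.0153, adjusted p = 0.0438; rho = -0.89, p = 0.0333, adjusted p = 0.15). For the brighter Rarg probe set r was -0.91 (exact permutation p = 0.0153, adjusted p = 0.0438; rho = -0.83, p = 0.0583, adjusted p = 0.175).

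These 4 of 9 genes passed at an adjusted p of 0.05 by r, and 0 passed by rho. The permutations treat the 6 arrays as exchangeable and take no account of the group or of the replicate number, which the titles share between the groups. Without control 2 and control 3, which lay farthest from the middle of the mesoderm scale, r was 0.97 for Cyp26a1, 0.91 for Crabp1 and -0.82 for Dhrs3. For Rarg it was -0.57, so that relation rests on those arrays, whereas the second Rarg probe set kept -0.96. Each group holds 3 arrays, too few for a correlation within it. With the group means removed, r over the 6 deviations was 0.99 for Cyp26a1, 0.92 for Crabp1, -0.92 for Dhrs3 and -0.92 for Rarg. Of all genes other than the markers 6.25% had r of at least 0.8 with the mesoderm mean and 6.46% had r of at most -0.8. By that cut Cyp26a1 and Crabp1 lay at the high end and Dhrs3 and Rarg at the low end, and no other gene of the set reached either. The share of all genes that would pass the permutation test was not worked out, so the count of 4 of 9 has no background of its own kind.

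The remaining genes did not pass. Crabp2 had r = -0.71 (exact permutation p = 0.1097, adjusted p = 0.1975; rho = -0.54, p = 0.297, adjusted p = 0.356), and -0.048 without the 2 farthest arrays. Stra6, Aldh1a2, Rara and Rarb had r between -0.49 and 0.55, with adjusted exact permutation p-values of 0.404 to 0.453. Without the 2 farthest arrays r was -0.66 for Stra6 and -0.64 for Rara. It turned from 0.44 to -0.22 for Aldh1a2 and from 0.55 to -0.90 for Rarb, so those 2 signs rest on control 2 and control 3. Because the cells were sorted as a mixture, fewer cells of a type and less RNA per cell cannot be told apart in any of these values. The pluripotency mean ran the other way and gave r of -0.95 with Cyp26a1 and 0.94 with Dhrs3. Whether the make-up of the sorted cells accounts for the spread of the retinoic acid genes was not tested.

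**Figure D3:**
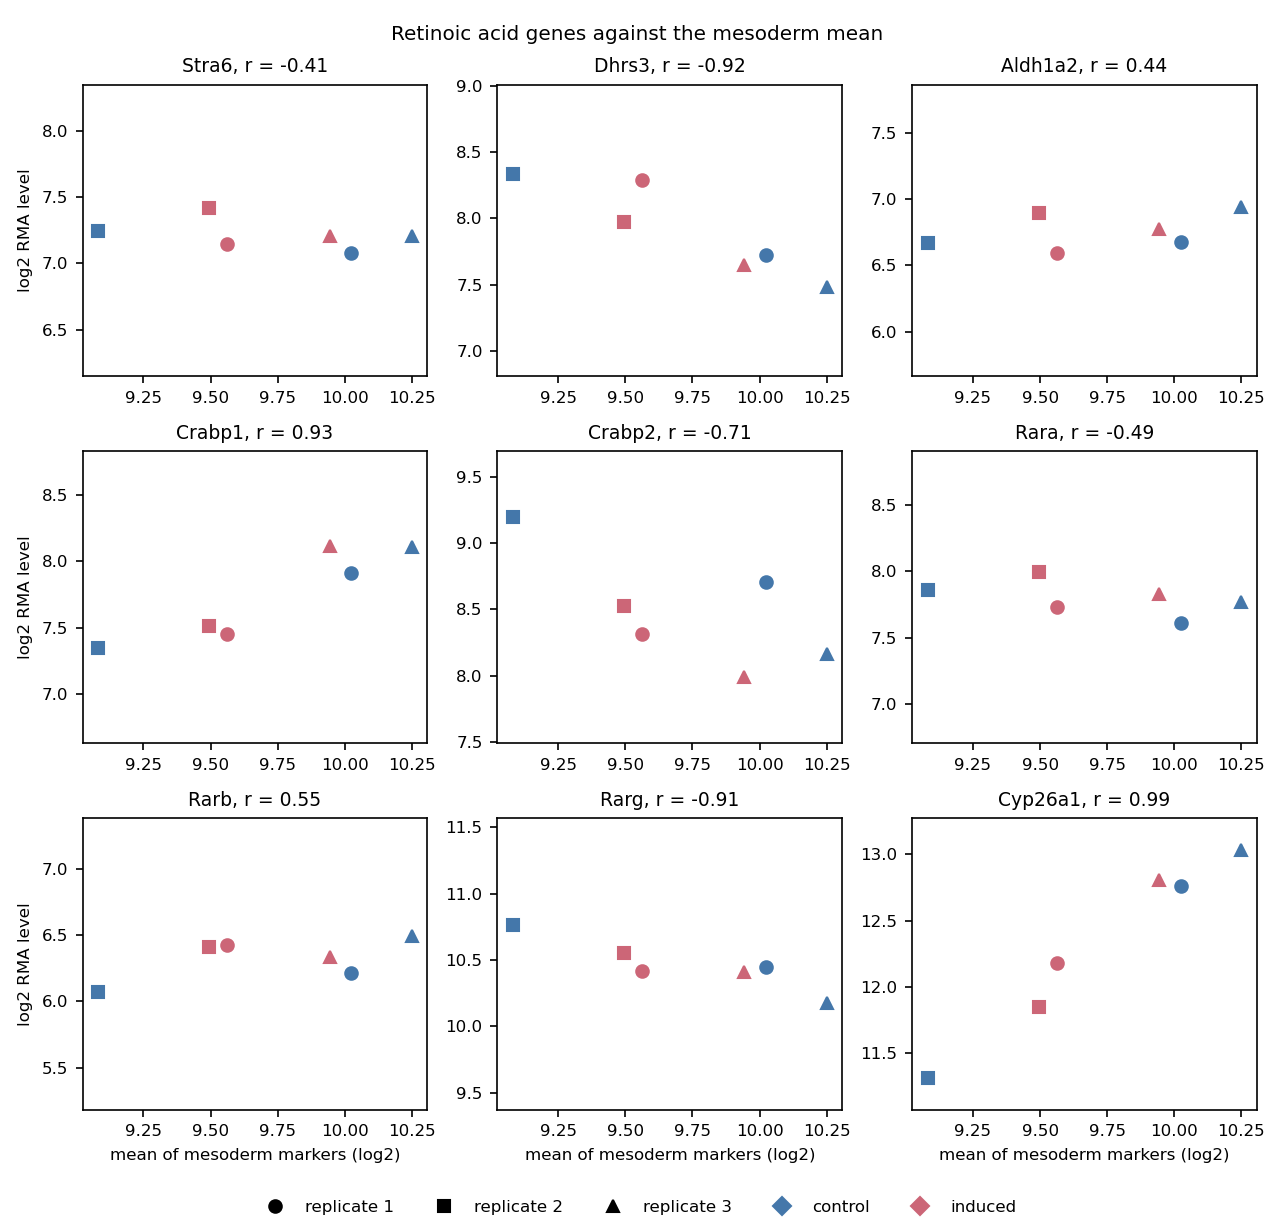
Log2 level of each retinoic acid gene (vertical axis, brightest probe set, equal span in every panel) against the mean log2 level of 30 mesoderm markers (horizontal axis) on the 6 arrays, blue for control and red for induced, with symbols for replicate numbers. Cyp26a1 and Crabp1 climb along the axis from control 2, Dhrs3 and Rarg descend, and Aldh1a2, Stra6, Rara and Rarb span less.

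The genes whose pattern was most like that of Cyp26a1 were taken from 171 genes with an SD of at least 0.5 over the 6 arrays, by Pearson r. They were Msx1, a homeobox gene of posterior mesoderm and BMP signalling (r = 0.998), Asb4, a ubiquitin ligase adaptor (0.998), Hoxb1, the most 3′ Hoxb gene and a classical retinoic acid target (0.998), Six2, a homeobox gene of mesenchyme (0.997), and Adam19, a membrane metalloprotease (0.996). With 6 arrays high values are common: 76 of the 171 candidates reached 0.9. Hoxb1 read 8.80, 7.70 and 9.11 in the controls and 8.36, 8.13 and 8.85 in the induced samples, which is the order of arrays seen in Cyp26a1.

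**Figure D4:**
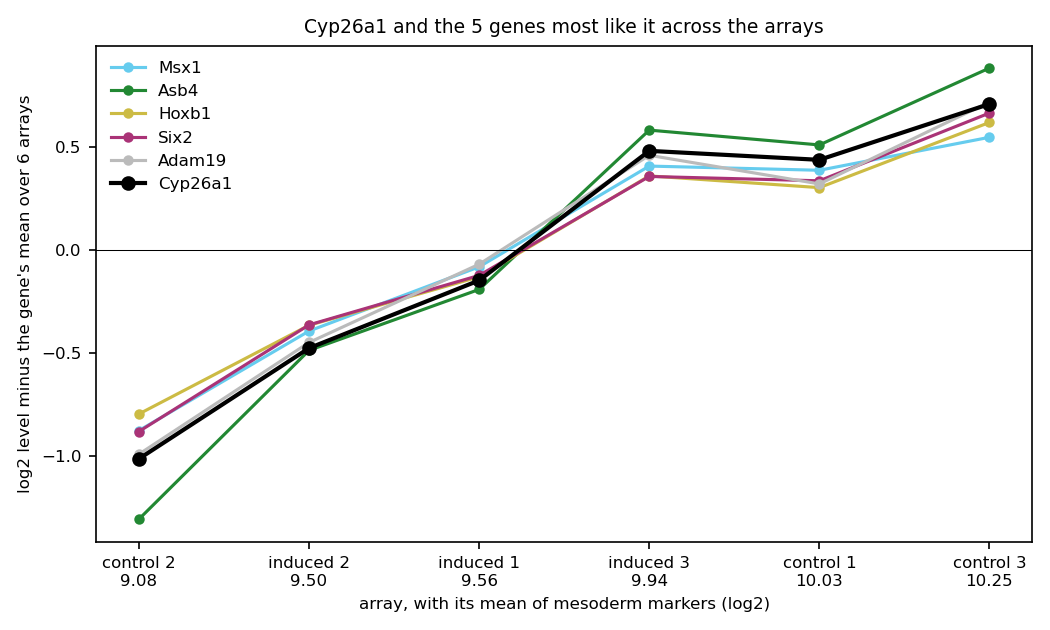
Log2 level minus the gene's own mean over the 6 arrays (vertical axis) for Cyp26a1 (black) and the 5 genes most correlated with it, with arrays ordered along the horizontal axis by their mean of mesoderm markers, printed under each array. All 6 genes are lowest in control 2 and highest in control 3.

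The rest of the pathway was read through 82 listed genes, 72 of them measured, each by its brightest probe set. None passed limma's adjusted threshold, and 3 had an unadjusted p under 0.05, with 42 differences above 0 and 30 below. Over the 18193 genes 1 passed, 290 had an unadjusted p under 0.05, and 9296 differences lay above 0 and 8897 below. The median log2 difference of the pathway genes was 0.019, against 0.0026 over all genes. Of the 6 arrays induced 2 had the highest lower quartile of levels (6.06) and the lowest upper quartile (9.13). Whether this bears on the signs of dim genes was not tested. Induced samples lay wholly above the controls in 2 genes and wholly below in 3, where 2.88% and 3.91% of all genes did. Genes are named below by rule, as the 3 of each list with the smallest unadjusted p.

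Among 21 measured genes of retinoid supply, which oxidise, reduce, isomerise, esterify or cleave retinoids and their precursors, 13 were above 0 and 8 below, with a median of 0.047. Rpe65, the retinoid isomerase of the visual cycle, had -0.20 ± 0.086 (SE), Aldh1a1, a further retinal dehydrogenase, 0.10 ± 0.076, and Bco2, a carotenoid-cleaving enzyme, 0.15 ± 0.11. Mean levels were low for Aldh1a1, at the 2.6th percentile of probe set levels, and for Rpe65, at the 27.0th. Of the 6 transport genes 3 were above 0 and 3 below. Rbp4, the serum carrier of retinol, had -0.13 ± 0.080, the retinal carrier gene Rbp3 -0.081 ± 0.088, and Rbp7, a cellular retinol carrier, 0.090 ± 0.11. The mean level of Rbp7 lay at the 27.5th percentile. Cyp26b1, the other Cyp26 enzyme measured, read 8.12, 8.12 and 8.30 in the controls and 8.09, 8.31 and 8.22 in the induced samples. It thus spanned 0.22 over the arrays on which Cyp26a1 spanned 1.72, and its log2 difference was 0.029 ± 0.093.

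Partner receptors and cofactors held 12 measured genes, 5 above 0 and 7 below, with a median of -0.0044. Rxrg, which encodes the RXR gamma partner of the receptors, read 8.54, 8.48 and 8.77 in the controls and 8.88, 8.91 and 9.01 in the induced samples. All 3 induced samples lay above all 3 controls, with a log2 difference of 0.34 ± 0.096, an unadjusted limma p of 0.0090 and an adjusted p of 0.9998. Ncoa1, a coactivator, had -0.23 ± 0.079 with all induced samples below the controls, and Kat2b, an acetyltransferase, 0.30 ± 0.21. Crebbp, another acetyltransferase coactivator, named because its groups did not overlap, had -0.074 ± 0.073.

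Of 32 measured retinoic acid target genes 20 were above 0 and 12 below, with a median of 0.028. Foxa1, a forkhead factor of endoderm, read 8.23, 8.13 and 8.22 in the controls and 8.81, 8.40 and 8.59 in the induced samples. Its groups did not overlap, and the log2 difference was 0.41 ± 0.11 (SE), with an unadjusted limma p of 0.0070 and an adjusted p of 0.9998. Gbx2, a homeobox gene, had -0.41 ± 0.23 and Rarres2, a secreted chemoattractant, -0.13 ± 0.079. The mean level of Gbx2 lay at the 26.2nd percentile of probe set levels.

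**Figure D5:**
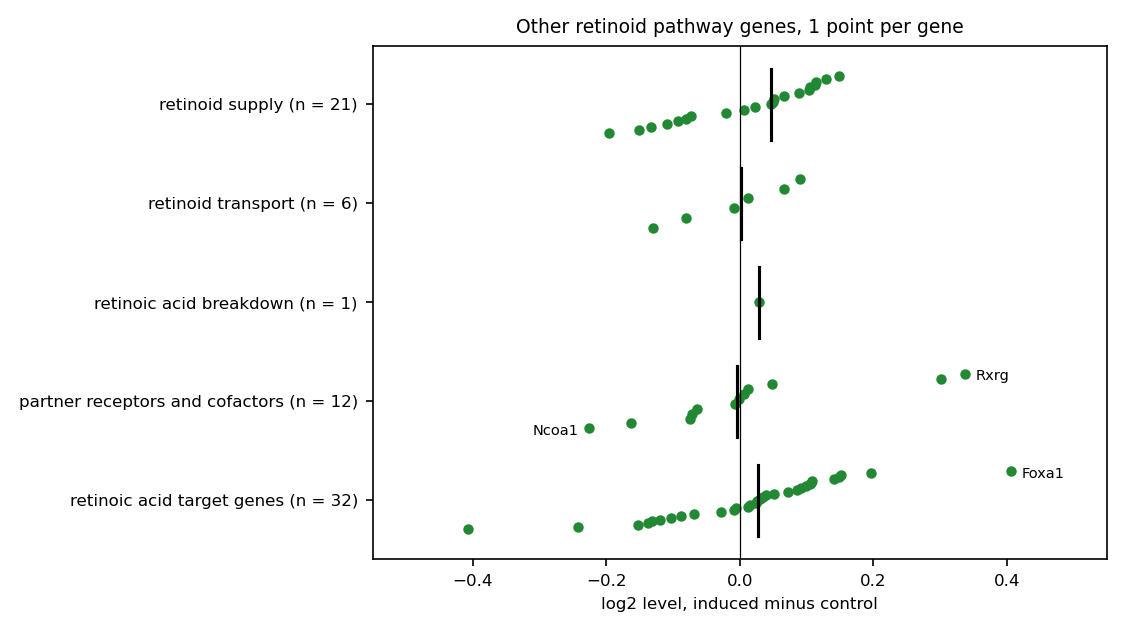
Difference in log2 level, induced minus control (horizontal axis), of the other retinoid pathway genes, 1 point per gene, grouped by list with the number measured and a line at each median. Points named are the 3 with an unadjusted p under 0.05, and the medians lie between -0.0044 and 0.047.

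The target list was also set against the mesoderm mean, leaving out genes that are themselves mesoderm markers. Of 30 such targets 5 (16.7%) had r of at least 0.8, namely Hoxb1, Hoxb2, Cdx1, Meis2 and Lamb1, and 2 (6.67%) had r of at most -0.8, namely Tgm2 and Bhlhe40, all chosen by that value. Over all genes other than the markers these shares were 6.25% and 6.46%, so the count at the low end lay near the background. Hoxb2 read 8.78, 7.88 and 8.94 in the controls and 8.19, 8.31 and 8.68 in the induced samples (r = 0.99). Tgm2, a transglutaminase gene that retinoic acid induces in many cells, read 7.27, 7.69 and 7.14 in the controls and 7.57, 7.78 and 7.21 in the induced samples (r = -0.90). Retinoid supply had 2 of 21 genes (9.52%, against 6.25%) at r of at least 0.8, Rdh11 and Dgat1, and transport, breakdown and partner lists had 0 in either direction.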

How the data were processed

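RNA of sorted cells was measured on Affymetrix arrays in 3 control and 3 induced samples, grouped by their titles. The deposited table holds log2 values per probe set, made by the authors with RMA, per the submitters' processing notes; the sources used here give no version, software or genome build. Scanner files and detection calls were not used here, and the number of arrays limits the precision. No label says whether replicates were separate cultures, so the p-values cover only the spread among these samples, and that may be technical.

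Gene symbols came from GEO's annotation of the platform: 34945 had 1 symbol, 932 several and 9160 no entry, after 64 Affymetrix control probe sets were set aside. The remaining 45037 were fitted in limma 3.58.1 (R 4.3.3) with lmFit and eBayes, two-sided, without a filter on dim probe sets, with Benjamini-Hochberg adjustment over all of them at 0.05. Differences are induced minus control; errors of differences are SEs of the fit. A gene with several probe sets was represented in lists by that with the highest mean. Exact permutation tests over the 6 arrays, motif searches and plots used Python 3.11.15. Fits were tested on simulated data with independent normal noise. Of 100 planted changes of 1 log2 unit the group comparison recovered 78, and of 100 of 2 log2 units 95. The F test of the replicate number recovered 1 of 100 and 70 of 100, so its count of 0 calls says little about changes of 1 log2 unit. In the real data Etv2, with a difference of 3.56, was not called, so the simulated recovery of the group comparison cannot be carried over to these arrays.

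Same-numbered samples deviated together from their group means (r = 0.25, 0.17 and 0.23 over all probe sets for numbers 1, 2 and 3). All exceeded the cut of 0.1 used here, and the titles share the numbers. Differences within numbers are therefore given, and a fit with the number as a block was run as an alternative. Control 1 and induced 3 also reached 0.21, and control 2 was closer to induced 1 (0.18) than to induced 2 (0.17). These values alone therefore do not identify the pairs. The comparison reported has no pair term, so its SEs, intervals and p-values ignore any pairing. With the block the SE was smaller for every retinoic acid probe set but that of Rarb (0.115 in both fits). It was 0.20 against 0.45 for Cyp26a1, 0.14 against 0.27 for the second Rarg probe set and 0.13 against 0.24 for Crabp1. The rule for naming took all 9 genes, the 3 pathway genes with the smallest unadjusted p in each list, Etv2 and Kdr, and the 5 genes most correlated with any of the 9 whose SD was at least 0.5; genes outside it are said to be chosen by value. The members and lists were chosen with earlier results of these data known. Alternatives covered the probe set used, pair term, normalization, dim probe sets, weights, prior, the mesoderm mean as a covariate, and arrays left out.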

Additional observations from a re-analysis of the deposited data

How the results depend on the processing

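The count of 0 retinoic acid probe sets called between induced and control samples, and of 0 pathway genes, was the same under every alternative run. Crabp2 (negative) and Stra6, Rara, Rarb and the second Rarg probe set (positive) kept their sign throughout, Crabp2 between -0.67 and -0.16. The positive ones came close to 0 in some settings. Without induced 2 Stra6 was at 0.0012 and Rara at 0.030. Rarb was at 0.028 without both arrays of number 2, and the second Rarg probe set at 0.025 without control 3. Signs of differences near 0 turned: the first Rarg probe set was at 0.048 after quantile normalization, and a covariate of mesoderm markers put Aldh1a2 at 0.011 and Cyp26a1 at 0.092. With 1 array left out the range was -0.62 (without control 2) to 0.24 (without control 3) for Cyp26a1, -0.060 to 0.36 for Dhrs3, -0.077 to 0.083 for Aldh1a2, -0.32 to 0.064 for Crabp1 and -0.14 to 0.15 for the first Rarg probe set. Without both arrays of number 1, Aldh1a2 was at 0.032, Cyp26a1 at 0.16, Crabp1 at 0.084, Dhrs3 at -0.097 and the first Rarg probe set at 0.010. That probe set was at 0.10 without number 2, and Aldh1a2 at 0.073 without number 3. The 1 probe set called in the whole table was lost (0 called, 0 higher) with the replicate block, with each array centred on its median, and without any 1 array or both arrays of a number (0 to 0), while the mesoderm covariate gave 2, both (2) higher. The replicate block changed no other call. The F test of the replicate number called 22 of all probe sets with an intensity trend and robust prior and 1 to 1018 with an array left out, and 0 to 3 of the retinoic acid probe sets. By r, relations with the pluripotency mean in place of the mesoderm mean passed in 2 genes, Cyp26a1 and Dhrs3, against 4, and with Kdr in 4. The count of 0 by rho also depended on the setting. With Kdr, Cyp26a1 passed by rho (rho = 1, adjusted exact permutation p = 0.025). Rarg passed by rho with its more variable probe set and after quantile normalization (rho = -1, adjusted exact permutation p = 0.025 in both). The strict DR5 letters left 0 genes against 2. Rarb and Aldh1a2 lay at the 30.8th and 39.0th percentile of probe set levels, and no detection calls or background values were used here.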

Other observations

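Crabp2 was the gene of the set whose relation to the mesoderm mean changed most when group means were removed. Its r over the 6 arrays was -0.71, and over the deviations from group means it was -0.93. With the mesoderm mean as a covariate in limma its log2 difference was -0.51 ± 0.12 (SE) with an unadjusted p of 0.0031 and an adjusted p of 0.9998, so it did not pass over all probe sets in that fit either. Without the covariate the SE was 0.26.

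Of 27025 genes with a RefSeq promoter window, 31 had a DR5 in at least 1 window, and 11 of these were measured here, Rarb and Cyp26a1 among them. None of the 11 passed limma's adjusted threshold between induced and control samples, where 1 of all 18193 genes did, so this count says little about genes with a DR5. Their median log2 difference was 0.012, against 0.0026 over all genes. None of the 55 other pathway genes with a window held a DR5 in it.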
